A study of Mus musculus with 38 samples.

Results

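Expression of 6 metabotropic glutamate receptor genes, Grm2, Grm3, Grm4, Grm5, Grm7, and Grm8, was followed in the prefrontal cortex (PFC) and hypothalamus (Hypo) of Ube3a2X mice and their WT littermates. The genes were taken by symbol from a table of read counts for 54165 genes, and each of the 6 symbols matched 1 row. Bulk RNA-seq covered 38 libraries from 25 adult FVB/NJ mice, and 13 of the mice gave both tissues. Ube3a2X mice were homozygous for a Ube3a transgene, came from heterozygous parents, and belonged to a single transgenic line. WT littermates without the transgene were the controls. The PFC had 5 libraries in each of the 4 groups of sex and genotype. The Hypo had 5 Ube3a2X males, 5 Ube3a2X females, 4 WT males, and 4 WT females. Libraries are named here by group and mouse number, and a level is given as CPM, the counts on a gene per 1 M (mega) reads counted, with library sizes scaled by TMM.

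Glutamate acts on metabotropic receptors through G proteins rather than through an ion channel. Group I, here Grm5, couples to Gq, phospholipase C, and release of calcium from internal stores, and is concentrated at postsynaptic sites. Group II (Grm2 and Grm3) and group III (Grm4, Grm7, and Grm8) couple to Gi and Go, lower cyclic AMP, and act at many presynaptic terminals to reduce transmitter release. Grm3 is also made by astrocytes, Grm7 is known for its place in the presynaptic active zone, and Grm6 is a receptor of retinal bipolar cells.

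In GRCm38, Grm2 (ENSMUSG00000023192) lay on the minus strand of chromosome 9 from 106643095 to 106656082. Grm3 (ENSMUSG00000003974) lay on the minus strand of chromosome 5 from 9485541 to 9725170. Grm4 (ENSMUSG00000063239) lay on the minus strand of chromosome 17 from 27422387 to 27521403. Grm5 (ENSMUSG00000049583) lay on the plus strand of chromosome 7 from 87584168 to 88134907. Chromosome 6 carried both Grm7 (ENSMUSG00000056755, plus strand, 110645581 to 111567230) and Grm8 (ENSMUSG00000024211, minus strand, 27275119 to 28135178). The fewest reads on any of the 6 genes in a library were 280, for Grm2, and the most were 76208, for Grm5.

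Libraries held 36.9 to 69.1 M counted reads in the PFC and 39.0 to 380.8 M in the Hypo, and RNA integrity (RIN) ran from 6.7 to 8.9 in the PFC and from 6.8 to 9.3 in the Hypo. Ube3a levels matched the genotype labels, at 103 to 355 CPM in all WT libraries and 686 to 2169 CPM in all Ube3a2X libraries. Reads of the transgene and of the endogenous gene were counted together. The hypothalamic marker list of 8 genes summed to 432 to 1938 CPM in the Hypo and 0.700 to 1.98 CPM in the PFC, where Hcrt, Avp, Oxt, Sim1, and Nkx2-1 averaged under 0.1 CPM. Markers of excitatory cortical neurons (6 genes) summed to 5311 to 10227 CPM in the PFC and 269 to 590 CPM in the Hypo. One library in each tissue stood apart. PFC Ube3a2X female 468 had the fewest reads (36.9 M), the lowest score for AT dropout of all libraries (10.6, against 14.4 to 22.1 in the rest of the PFC), and the most uneven coverage (coefficient of variation 0.717). Hypo WT female 471 had 4590 CPM of the 6 pituitary markers, against 14.7 to 965 CPM in the other Hypo libraries, and the lowest Ube3a level of all.

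Levels between genes were compared per length, as CPM per kb of exon (RPKM). In the PFC, Grm5 had the highest mean, at 27.8 ± 4.81 RPKM (SD, n = 20), and Grm3 followed at 26.1 ± 5.64. These neighbours were not separated, since Grm5 was above Grm3 in 14 of 20 libraries. Grm2 (13.8 ± 2.78) was above Grm7 (11.6 ± 1.56) in 16 of 20 libraries, and both were well above Grm8 (3.17 ± 0.983) and Grm4 (3.05 ± 0.614), whose order was open, with Grm8 ahead in 12 of 20. In the Hypo, Grm5 again had the highest mean, at 17.7 ± 3.03 RPKM (n = 18), followed by Grm7 at 12.4 ± 1.58, Grm3 at 9.22 ± 1.31, Grm2 at 5.93 ± 2.53, Grm4 at 3.89 ± 1.04, and Grm8 at 2.46 ± 0.199. There each gene exceeded the next in at least 15 of 18 libraries. Grm7 thus ranked 4 in the PFC and 2 in the Hypo, while Grm3 ranked 2 and 3.

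**Figure D1:**
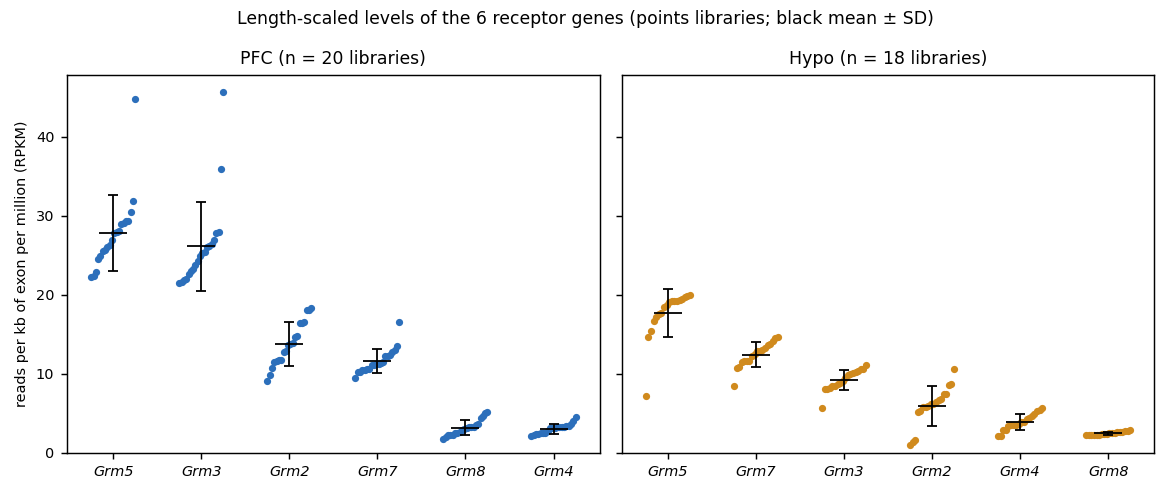
Length-scaled levels (RPKM, linear axis from 0) of the 6 receptor genes in each PFC and each Hypo library, ordered by mean within the tissue, with points for libraries and black bars for mean ± SD. Grm5 leads in both tissues, and Grm3 is next to it in the PFC (26.1 RPKM) but below Grm7 in the Hypo (9.22 against 12.4 RPKM).

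The first comparison asked how the 6 genes differ between the tissues. Of the 6 receptors, 4 were higher in the PFC (Grm3, Grm2, Grm5, and Grm8), 1 was lower (Grm4), and Grm7 did not pass the test. The test was edgeR's quasi-likelihood test on all 38 libraries with the 8 groups and RIN, with Benjamini-Hochberg adjusted p-values and a call at an adjusted p under 0.05. Across the 22282 genes tested, 63.4% were called, 31.0% higher and 32.4% lower in the PFC, so that a called receptor was not unusual in this comparison. Tissue could not be told apart from the amount of RNA used, 500 ng for all PFC and 1000 ng for all Hypo libraries. RIN was nearly split by tissue as well, with medians of 7.6 (PFC) and 8.95 (Hypo). Apart from PFC WT female 395 (8.9), PFC libraries had 8.3 or less. Apart from Hypo WT male 423 (6.8), Hypo libraries had 8.8 or more. Since the model held RIN, its fitted tissue differences relied on little overlap between tissue and RIN. RNA per cell could not be told apart from the number of cells of a type in bulk tissue.

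**Figure D2:**
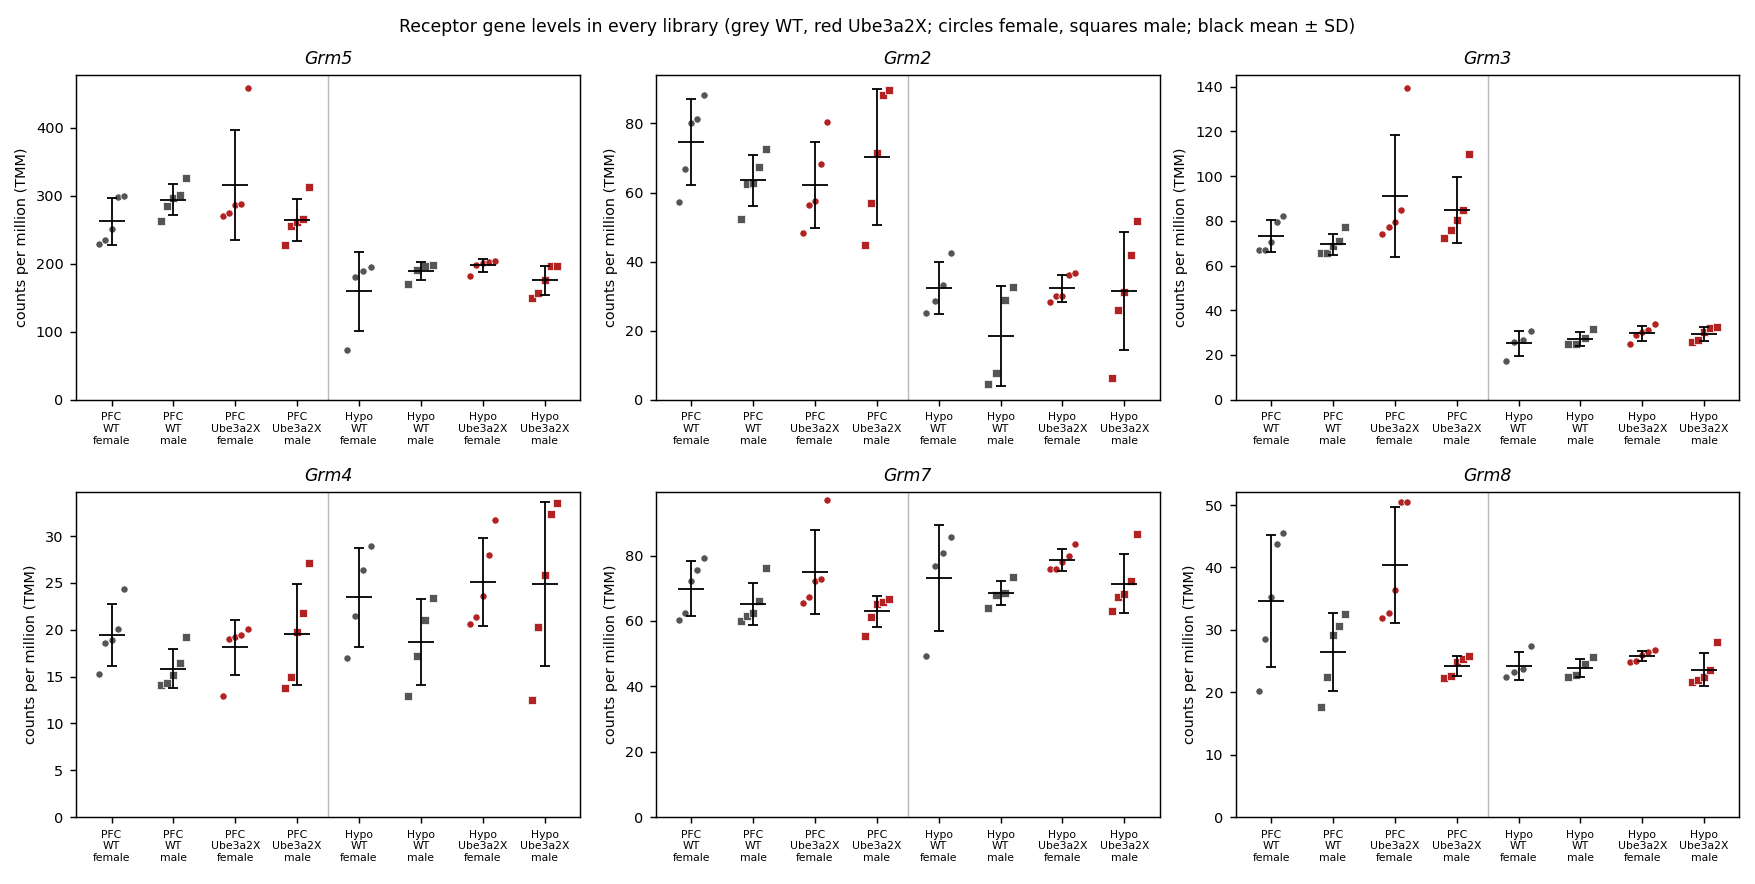
CPM (linear axes from 0) of each receptor gene in every library of the 8 groups, with grey for WT, red for Ube3a2X, circles for females, squares for males, and black bars for mean ± SD. Grm3 and Grm5 do not overlap between PFC and Hypo, and 3 Hypo libraries of males sit below 8 CPM for Grm2.

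Grm3, a group II receptor of neurons and glia, had the largest difference. Its levels in PFC WT females were 66.8, 67.1, 70.3, 79.3, and 82.3 CPM and in PFC WT males 65.4, 65.8, 68.8, 70.9, and 77.0 CPM. PFC Ube3a2X females had 74.2, 77.4, 79.7, 84.7, and 139 CPM and PFC Ube3a2X males 72.4, 75.8, 80.5, 85.0, and 110 CPM. All 18 Hypo libraries lay between 17.2 and 33.8 CPM, with a median of 28.4. The tissues did not overlap, and Grm3 was higher in the PFC in 13 of 13 mice with both tissues. The fitted difference was 1.64 on the log2 scale (SE 0.116, edgeR adjusted p = 8.15e-15), or 3.12-fold. The astrocyte markers (8 genes) had a median sum of 2053 CPM in the PFC and 2918 CPM in the Hypo. Markers of excitatory cortical neurons (6 genes) had a median sum of 6928 CPM in the PFC and 476 CPM in the Hypo. The part of these cells in the difference of Grm3 was not tested.

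Grm2, the other group II receptor, had 57.3 to 88.2 CPM in PFC WT females, 52.3 to 72.6 in PFC WT males, 48.3 to 80.5 in PFC Ube3a2X females, and 44.7 to 89.8 in PFC Ube3a2X males. Its Hypo levels are given singly further on, and ran from 4.60 to 51.7 CPM. Only the Hypo library of Ube3a2X male 258, at 51.7 CPM, reached the range of the PFC. The difference was 0.996 (SE 0.270, edgeR adjusted p = 0.00167), higher in the PFC, in the same direction in 12 of 13 mice. With the mouse as a fixed factor on the 13 mice, the difference of Grm2 was 1.10 (SE 0.549) and was no longer called (edgeR adjusted p = 0.158).

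RefSeq promoters of Grm2 and Grm3 are shown because these genes differed most between the tissues. Each runs from 250 bases before to 50 bases after the annotated start, 5′ to 3′ on the strand of the gene, and the Grm2 one spans chr9:106656060-106656359 and the Grm3 one chr5:9725303-9725602 (GRCm38.p6, minus strand). Capitals mark the GC box, searched as GGGCGG and, for the other strand, CCGCCC.
Grm2: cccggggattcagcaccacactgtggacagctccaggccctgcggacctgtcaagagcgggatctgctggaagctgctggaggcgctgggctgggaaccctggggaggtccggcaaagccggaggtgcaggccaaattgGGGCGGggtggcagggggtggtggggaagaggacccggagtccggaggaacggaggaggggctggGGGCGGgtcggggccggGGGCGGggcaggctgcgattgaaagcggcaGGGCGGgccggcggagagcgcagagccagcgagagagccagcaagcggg
Grm3: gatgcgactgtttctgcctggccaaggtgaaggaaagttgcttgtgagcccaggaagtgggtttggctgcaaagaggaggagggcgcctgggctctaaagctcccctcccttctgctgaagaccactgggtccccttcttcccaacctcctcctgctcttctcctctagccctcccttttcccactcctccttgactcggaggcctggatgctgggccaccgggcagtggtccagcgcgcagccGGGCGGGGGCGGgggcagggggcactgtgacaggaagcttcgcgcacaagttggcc
The Grm2 window was 72.0% GC with 22 CpG pairs and 4 GC boxes, and the Grm3 window 63.7% GC with 11 CpG pairs and 2 adjoining GC boxes. Over all 32851 promoters of this length the median was 52.7% GC and 7 CpG pairs, and 35.7% held a GC box. Of the 6 receptors, 4 had an entry in this table.

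Grm5, the group I receptor, was 228 to 459 CPM in the PFC (median 281, n = 20) and 73.5 to 204 CPM in the Hypo (median 193, n = 18), without overlap. It was higher in the PFC in 13 of 13 mice. The difference was 0.79 (SE 0.131, edgeR adjusted p = 3.10e-06), or 1.72-fold. The highest PFC and the lowest Hypo value came from the libraries that stood apart, 468 and 471. Without both, the difference of Grm5 was 0.61 (SE 0.0746, edgeR adjusted p = 1.09e-08).

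The group III receptors parted. Grm8 was 17.6 to 50.5 CPM in the PFC and 21.7 to 28.1 CPM in the Hypo, so that the narrow Hypo range lay inside the PFC range. Its difference was 0.57 (SE 0.128, edgeR adjusted p = 2.39e-04), with higher PFC levels in 10 of 13 mice. Grm4 was 12.9 to 27.1 CPM in the PFC and 12.5 to 33.5 CPM in the Hypo, with a difference of -0.42 (SE 0.158, edgeR adjusted p = 0.0206) and lower PFC levels in all but 3 of 13 mice. With the mouse as a fixed factor neither was called (Grm8 0.47, adjusted p = 0.0783 and Grm4 -0.56, adjusted p = 0.237, edgeR). Grm4 also lost its call when Hypo WT male 423, the Hypo library with the lowest RIN, was left out (-0.35, edgeR adjusted p = 0.167), and when PFC Ube3a2X female 468 was left out (-0.36, edgeR adjusted p = 0.0509).

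Grm7, a low-affinity receptor of the presynaptic active zone, was 55.4 to 97.1 CPM in the PFC and 49.4 to 86.6 CPM in the Hypo. Its difference was -0.024 (SE 0.0909, edgeR adjusted p = 0.832), and ±1.96 SE ran from -0.20 to 0.15. Within mice with both tissues, Grm7 was higher in the PFC in 1 of 13, with a median difference of -0.15 on the log2 scale (range -0.64 to 0.35). Both ends of the level range were set by libraries 468 and 471. Without them, Grm7 was -0.16 (SE 0.0685, edgeR adjusted p = 0.0369) and was called lower in the PFC.

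**Figure D3:**
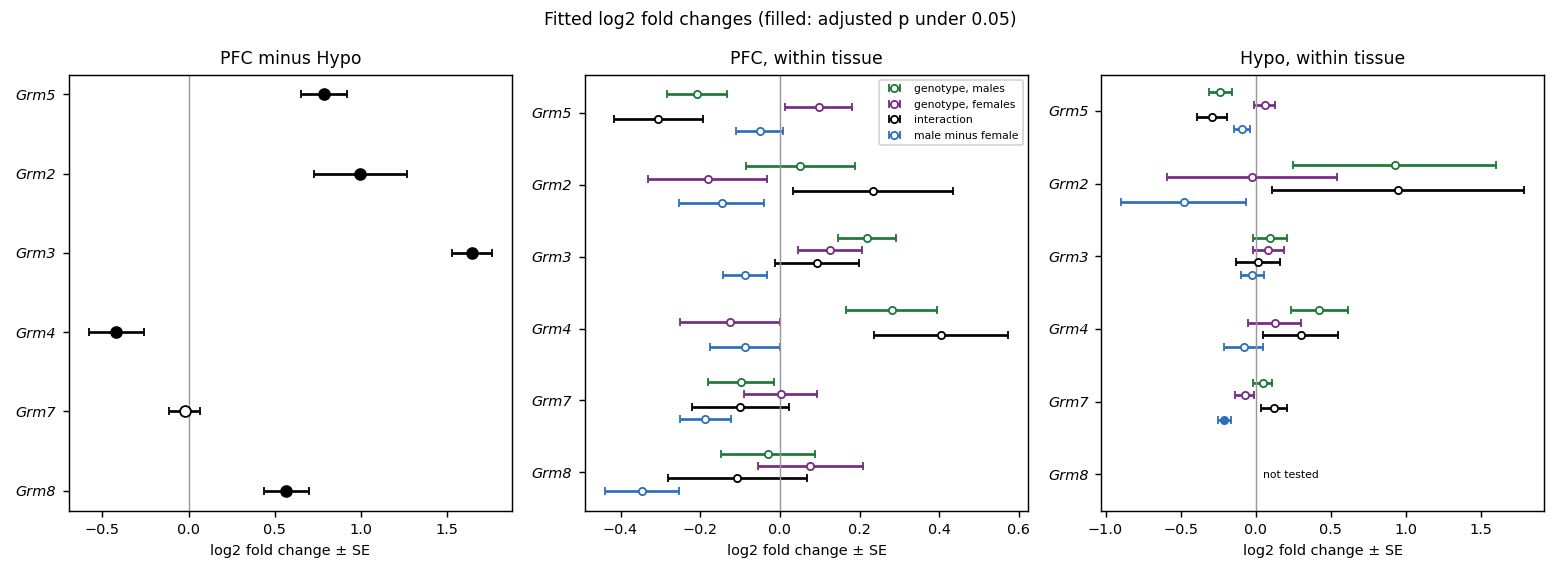
Fitted log2 fold changes ± SE of the 6 receptors between the tissues (left) and for genotype in males, genotype in females, their interaction, and sex within the PFC (middle) and the Hypo (right), with filled points at an adjusted p under 0.05. Between tissues 5 points are filled, and within tissues only the sex effect of Grm7 in the Hypo.

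The genes around the receptors were taken from a list of 58, sorted by role, of which 57 could be tested between the tissues and 53 were called, 38 higher and 15 lower in the PFC, against 63.4% of all genes called, 31.0% higher and 32.4% lower. Their median difference was 0.65, against -0.022 over all genes tested. Among 8 effectors of group I, 6 were higher and 2 lower. Itpr1, the receptor for inositol trisphosphate, was higher by 2.54 and Plcb1, a phospholipase C, by 2.44. Among 9 effectors of groups II and III, 6 were higher and 3 lower, led by Adcy1, a calcium-stimulated adenylyl cyclase (4.14), Kcnj3, a subunit of the G protein-gated potassium channel (1.75), and Adcy2 (1.47).

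Scaffolds and partners, which hold group I receptors to the postsynaptic density or bind group III receptors across the synapse, had 11 of 14 higher and 1 lower. Tamalin, which is Grasp in the table, was higher by 3.18, Homer1 by 3.13, and Dlgap1 by 2.94, and Homer3 was lower (-0.29). Of 11 genes for glutamate release and uptake and for the peptide NAAG, an agonist of Grm3, 6 were higher and 4 lower. The vesicular transporters were opposite, with Slc17a7 higher by 10.3 and Slc17a6 lower (-5.18), and Folh1, the enzyme that cleaves NAAG, was lower (-1.19). The G proteins had 4 of 6 higher and Gnai2 lower (-0.84). The genes of desensitization and turnover had 5 of 8 higher and 3 lower, led by Rgs4 (1.83), a GTPase activator that shortens Gi and Gq signals. Oligodendrocyte markers moved with the tissue as well (6 genes, 962 to 3453 CPM in the PFC and 3137 to 5120 CPM in the Hypo), and their part in these differences was not tested.

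The next comparison asked whether genotype changed the receptors, and whether it did so in males and females alike. Within a tissue the model held the 4 groups, RIN, and 2 surrogate variables, after genes with few reads and the 15% with the lowest variance had been removed. All 6 receptors could be tested among 10900 PFC genes, and 5 among 11869 Hypo genes, where Grm8 fell to the variance filter. No receptor was called for genotype or for the sex*genotype interaction in either tissue, by edgeR, limma-voom, or DESeq2.

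For the PFC interaction, which is the effect of genotype in males minus that in females, 0% of genes passed an adjusted p under 0.05 by edgeR, 8.65% did by DESeq2 (778 of 8998 genes), and 25.2% passed an unadjusted p under 0.05 by edgeR. The count of genes called by edgeR, 0 with all libraries, was 1043 (9.56%) without Ube3a2X male 253, 1043 (9.57%) without Ube3a2X female 462, and 1624 (14.9%) without WT female 93. Of the 6 receptors, 2 passed the unadjusted threshold. Grm5 had 263, 286, 296, 301, and 326 CPM in WT males and 228, 255, 262, 266, and 313 CPM in Ube3a2X males. In females it had 230, 234, 251, 298, and 300 CPM in WT and 270, 275, 286, 288, and 459 CPM in Ube3a2X. The ranges overlapped in each sex. The interaction of Grm5 was -0.31 (SE 0.112, edgeR adjusted p = 0.119). Its parts were -0.21 in males (SE 0.0755, adjusted p = 0.172) and 0.097 in females (SE 0.0834, adjusted p = 0.578).

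Grm4, a presynaptic group III receptor, had the opposite sign. Its levels were 14.1, 14.3, 15.2, 16.4, and 19.2 CPM in WT males and 13.8, 14.9, 19.8, 21.8, and 27.1 CPM in Ube3a2X males. In females they were 15.3, 18.5, 18.9, 20.1, and 24.3 CPM in WT and 12.9, 19.0, 19.2, 19.5, and 20.1 CPM in Ube3a2X, and the groups overlapped in both sexes. The interaction of Grm4 was 0.40 (SE 0.168, edgeR adjusted p = 0.149). Its parts were 0.28 in males (SE 0.114, adjusted p = 0.210) and -0.12 in females (SE 0.125, adjusted p = 0.637).

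The interaction is given beside the GC content of the exons of the longest transcript of each gene. Grm4 had the highest GC content, at 61.7%, and the highest interaction. Grm2 followed on both scales, at 56.9% and 0.23. Grm3 had 47.6% GC and an interaction of 0.093, and Grm7 47.2% and -0.099. At the low end stood Grm5, at 42.5% and -0.31, and Grm8, at 41.9% and -0.11. Over all 10890 PFC genes with a known GC content, the interaction correlated with it at r = 0.59, a correlation across genes, which are not independent replicates. In the Hypo this was 0.18 over 11855 genes. The median interaction rose from -0.25 in the tenth of PFC genes with the lowest GC content to 0.29 in the tenth with the highest.

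**Figure D4:**
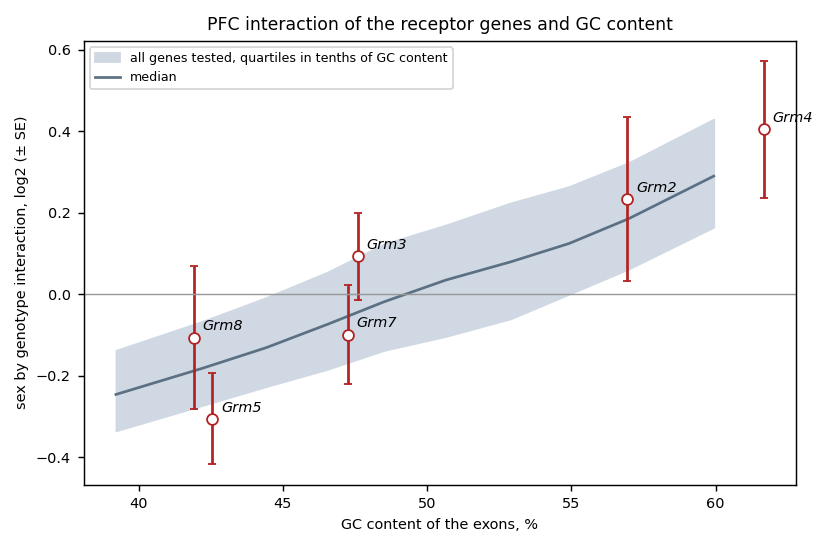
Sex*genotype interaction in the PFC (log2, ± SE) of the 6 receptors against the GC content in percent of the exons of their longest transcript, over the median (line) and quartiles (band) of all tested genes in 10 equal bins of GC content. Grm5, Grm7, and Grm8, at 47.2% GC or less, are below 0, and Grm2, Grm3, and Grm4 above it, up to 0.40 for Grm4, which lies at 61.7% GC, to the right of the median of its bin.

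When a dependence on GC content and exon length was estimated within every library and subtracted, the interaction of Grm4 was 0.057 (edgeR adjusted p = 0.859). That of Grm5 was -0.22 (edgeR adjusted p = 0.477). The subtraction draws on the same counts, so it shrinks an interaction that follows GC content whatever its source. The source of these interactions was thus not tested. When the surrogate variables gave way to 2 principal components of read quality, Grm4 changed sign to -0.39 (edgeR adjusted p = 0.863). Single libraries also set the size, since Grm5 went to -0.43 and passed the test without PFC WT female 93 (edgeR adjusted p = 0.0222), passed it without PFC Ube3a2X female 462 (-0.39, edgeR adjusted p = 0.0467), and fell to -0.18 without PFC WT female 397. Grm4 was 0.12 without PFC WT female 397.

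Averaged over the sexes, genotype gave a PFC difference with an unadjusted p under 0.05 for Grm3 alone among the 6 receptors (0.17, SE 0.0542, edgeR adjusted p = 0.381), against 7.90% of all genes at that threshold and 0.0183% called. The 10 WT libraries had 65.4 to 82.3 CPM of Grm3 (median 69.6) and the 10 Ube3a2X libraries 72.4 to 139 CPM (median 80.1). The top of the Ube3a2X range was library 468, and without it the difference of Grm3 was 0.13. In males, 3 of 6 receptors passed an unadjusted p under 0.05 (18.3% of all genes did, and 0.0275% were called), namely Grm4 and Grm5 with the values above and Grm3 at 0.22 (SE 0.0718, edgeR adjusted p = 0.151). Other measures moved with genotype in the same males. Summed microglial markers (6 genes) were 240 to 315 CPM in WT and 327 to 373 CPM in Ube3a2X males, and excitatory neuron markers 5786 to 7009 and 7104 to 10227 CPM. The share of intronic bases was 4.398 to 5.85% in WT and 3.10 to 4.004% in Ube3a2X males, and the TMM factor 0.939 to 0.9749 and 0.884 to 0.933. Reads on the strand that the kit predicts made up 92.6 to 95.2% in WT males, and 98.2 to 99.1% in 4 of 5 Ube3a2X males and 92.1% in Ube3a2X male 258. The astrocyte sum overlapped, with medians of 2123 CPM in WT and 2409 CPM in Ube3a2X males. The part of these measures in the differences of Grm3, Grm4, and Grm5 was not tested. In females, 0 of 6 receptors passed the unadjusted threshold, against 14.6% of all genes (0.00917% called), and the values for the receptors ran from -0.18 for Grm2 to 0.13 for Grm3.

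In the Hypo the interaction of Grm5 was -0.29 (SE 0.0994, edgeR adjusted p = 0.703), the only 1 of 5 receptors at an unadjusted p under 0.05, which 6.90% of genes passed, and 0% of genes were called. Its levels were 171, 191, 197, and 199 CPM in WT males, 150, 158, 176, 197, and 197 CPM in Ube3a2X males, 73.5, 180, 190, and 195 CPM in WT females, and 182, 198, 202, 203, and 204 CPM in Ube3a2X females. The value of 73.5 CPM was that of library 471, which held the pituitary transcripts, and the other 17 libraries lay between 150 and 204 CPM. Without library 471 the interaction of Grm5 was -0.14 (edgeR adjusted p = 0.9997), and the difference in males went from -0.24 (SE 0.0742, edgeR adjusted p = 0.524) to -0.13.

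Genotype averaged over the sexes gave 0 of 5 Hypo receptors at an unadjusted p under 0.05, against 5.24% of genes, with 0.00843% called. In males 2 of 5 passed the unadjusted threshold, Grm5 and Grm4 (0.42, SE 0.192, edgeR adjusted p = 0.529), against 9.20% of genes, with 0% called. The value of Grm4 ran from 0.23 without WT male 245 to 0.81 without WT male 403. The inhibitory neuron markers (6 genes) separated the same males, at 974 to 1182 CPM in WT and 668 to 899 CPM in Ube3a2X, and the hypothalamic markers overlapped, with medians of 689 and 545 CPM. Their part in these differences was not tested. In females 0 of 5 passed it, against 2.93% of genes, with 0.00843% called. Grm8, tested alone by an exact permutation of the genotype labels within each sex, had 21.7 to 28.1 CPM over the 18 Hypo libraries and differed by 0.036 on the log2 scale between the genotypes (two-sided exact permutation p = 0.508). It was the least variable of the 6 genes in the Hypo, with an SD of 1.97 CPM about a mean of 24.4 CPM.

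Grm2 in the Hypo took on separate levels. WT males had 4.60 (mouse 245), 7.69 (mouse 251), 28.9 (mouse 403), and 32.7 CPM (mouse 423). Ube3a2X males had 6.41 (mouse 404), 26.0, 31.2, 42.0, and 51.7 CPM. WT females had 25.2, 28.5, 33.2, and 42.6 CPM and Ube3a2X females 28.4, 30.0, 30.1, 36.2, and 36.6 CPM. Thus 3 of 9 male libraries were below 8 CPM, of both genotypes, while 0 of 9 female libraries were below 25 CPM. The PFC libraries of the same mice 245 and 251 had 62.8 and 67.3 CPM of Grm2, inside the range of their group.

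Foxb1, a transcription factor of the mammillary hypothalamus, was low in the same 3 libraries. It was chosen after the values were seen, at rank 5 among the genes whose Hypo levels were most like those of Grm2 (r 0.95). Its low level in these libraries was fixed by that choice and is a description only. The genes ranked above it are not named here. Foxb1 was 3.29 (mouse 245), 5.44 (mouse 251), and 7.58 CPM (mouse 404) in these libraries and 18.4 to 33.0 CPM in the other 15. It was at 0 CPM in all 20 PFC libraries. Grm4 had 12.9, 17.2, and 12.5 CPM in the 3 libraries, and 17.03 to 33.5 CPM in the other 15. The summed hypothalamic markers were 554, 751, and 545 CPM there, inside the range of the Hypo. The part of the dissected region in these levels was not tested.

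**Figure D5:**
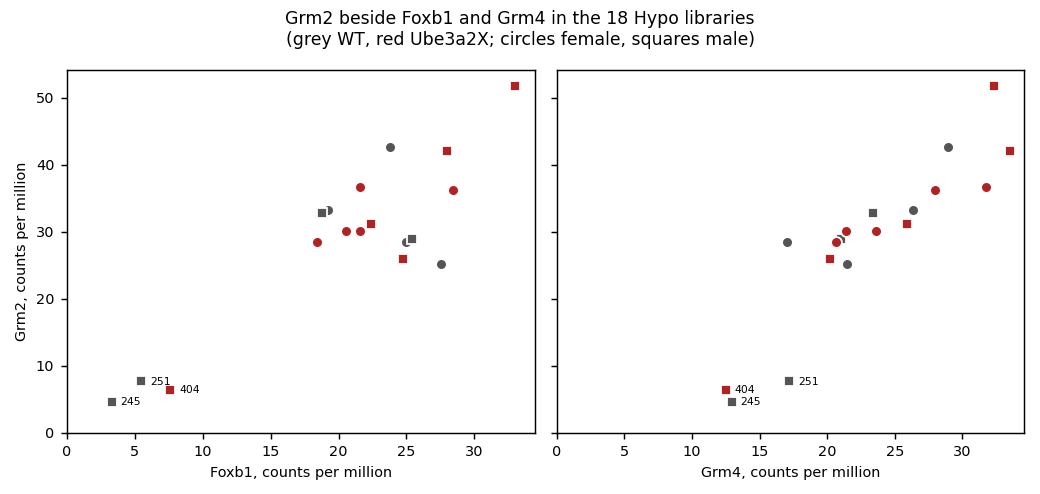
CPM of Grm2 (vertical) against Foxb1 (left) and Grm4 (right, both horizontal) in the 18 Hypo libraries, with grey for WT, red for Ube3a2X, circles for females, and squares for males, on linear axes from 0. The libraries of mice 245, 251, and 404 lie at 4.60 to 7.69 CPM of Grm2, apart from the other 15.

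The effect of genotype on Grm2 in Hypo males was 0.92 (SE 0.675, edgeR adjusted p = 0.638), and ranged from 0.39 without WT male 245 to 2.41 without WT male 403. In females it was -0.023 (SE 0.564). The interaction of Grm2 was 0.95 (SE 0.840, edgeR adjusted p = 0.753), with ±1.96 SE from -0.70 to 2.59, and the sex effect, male minus female, was -0.48 (SE 0.415). Without the 3 libraries the values of Grm2 were 0.14 in males, -0.081 in females, 0.22 for the interaction, 0.11 for sex, and 0.91 for the PFC against the Hypo. These 5 values are a description only, since the libraries left out were those with the least Grm2 and all came from males, which fixes a smaller spread and a higher male level. For Grm4, the effect of genotype in Hypo males was 0.23 (SE 0.130) without them. This too is a description only, since the libraries of mice 245 and 404 had the least Grm4 in the Hypo.

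Sex, averaged over the genotypes, gave the only within-tissue call among the receptors. Grm7 was lower in males in the Hypo by 0.21 on the log2 scale (-0.21, SE 0.0442, edgeR adjusted p = 0.0199), 1 of 5 receptors tested, where 2.30% of genes were called and 17.8% had an unadjusted p under 0.05. WT females had 49.4, 76.7, 80.7, and 85.8 CPM and Ube3a2X females 75.8, 76.0, 77.9, 80.0, and 83.6 CPM. WT males had 64.1, 68.0, 68.6, and 73.4 CPM and Ube3a2X males 63.0, 67.3, 68.1, 72.3, and 86.6 CPM. All but 1 female library lay above 75 CPM and all but 1 male library below it. The exceptions were library 471 and Ube3a2X male 238. Means were 76.2 ± 10.6 CPM in females and 70.2 ± 7.0 CPM in males (SD, n = 9 each).

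The call of Grm7 depended on the covariates. With RIN alone in the model it was -0.11 (SE 0.0921, edgeR adjusted p = 0.594), and with the components of read quality it was -0.22 (SE 0.0645, edgeR adjusted p = 0.143). It was called in 14 of 18 fits that each left out 1 library, and lost without WT male 245, WT male 251, WT female 262, or WT female 398 (edgeR adjusted p from 0.0545 to 0.0954). Without library 471 it was -0.23 (edgeR adjusted p = 0.0106), and without the 3 male libraries low in Grm2 and Foxb1 it was -0.17 and no longer called (edgeR adjusted p = 0.127). Marker sums that overlapped between the sexes had medians of 899 CPM in males and 1036 CPM in females for inhibitory neurons, 619.9 and 774 CPM for the hypothalamus, and 46.3 and 148 CPM for the pituitary, and their part in the difference of Grm7 was not tested.

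In the PFC the sex effect of Grm7 was -0.19 (SE 0.0641, edgeR adjusted p = 0.387) and that of Grm8 was -0.35 (SE 0.0922, edgeR adjusted p = 0.289), and neither was called. These were 2 of 6 receptors at an unadjusted p under 0.05, against 8.83% of genes, with 0.0917% called. Grm8 had 20.1, 28.6, 35.2, 43.7, and 45.5 CPM in WT females and 31.9, 32.8, 36.4, 50.4, and 50.5 CPM in Ube3a2X females. It had 17.6, 22.4, 29.2, 30.7, and 32.5 CPM in WT males and 22.3, 22.7, 24.8, 25.4, and 25.8 CPM in Ube3a2X males. Within the WT the sexes overlapped, and within Ube3a2X every female was above every male. The effect of sex by tissue was not tested as such.

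No difference of an effect between the tissues passed the test. For the difference of the genotype effect, 0 of 6 receptors passed an unadjusted p under 0.05, against 11.1% of 22282 genes, and 0% of genes were called. Grm2 had the largest value, -0.64 (SE 0.372, edgeR adjusted p = 0.536), with ±1.96 SE from -1.37 to 0.092, and ran from -1.12 without Hypo WT male 403 to -0.42 without Hypo WT male 245. Grm3 was at 0.18 (SE 0.152), and at 0.035 without PFC Ube3a2X female 468. For the difference of the interaction, 0 of 6 passed, against 6.11% of genes, and 0% were called.

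Of the listed pathway genes, 53 could be tested in the PFC and 50 in the Hypo. In the PFC 0 were called for the interaction, with 22 of 53 at an unadjusted p under 0.05, against 25.2% of all genes, and a median of 0.067, against 0.0038 over all genes, and 0 were called for genotype or sex by edgeR. DESeq2 called 8 for the interaction, where it called 8.65% of all genes, and 5 for genotype in males, where it called 2.25%. In the Hypo 2 of 50 were called for sex, a share near the 2.30% of all genes called. Both were higher in males, Itpr1 (0.31, SE 0.0438, edgeR adjusted p = 0.00141), the calcium channel that acts downstream of group I receptors, and Adcy5 (0.14, SE 0.0323, edgeR adjusted p = 0.0305), an adenylyl cyclase inhibited by Gi. Both calls were lost with RIN alone and with quality components.

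To describe which genes kept step with each receptor, Pearson's r of the deviations of log2-CPM from group means was taken in the 20 PFC and the 18 Hypo libraries, over 14387 genes, and genes were ranked by the lower of both values. The points share the depth and base composition of their library. They include PFC library 468 and Hypo library 471, which stood apart in Grm5. They also include the Hypo libraries of mice 245, 251, and 404, which were low in Grm2. How far the values of r rest on these libraries was not tested. Grm5 was most like Aff4, a part of the super elongation complex (r 0.97 in the PFC and 0.99 in the Hypo), Gnaq, the alpha subunit of Gq (0.96 and 0.98), and Rasal2, a Ras GTPase activator (0.97 and 0.96). Grm7 was most like Astn1 (0.92 and 0.94), Fat3 (0.90 and 0.89), and also Rasal2 (0.90 and 0.89). Grm3 was most like Map3k20 (0.91 and 0.90), Pygo1 (0.90 and 0.89), and Gpatch11 (0.90 and 0.89).

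Grm4 was most like Panx2, a pannexin (0.92 and 0.91), Ppp2r5b, a regulatory subunit of protein phosphatase 2A (0.90 and 0.89), and Flywch1 (0.92 and 0.88). For Grm2 the values were lower, with Asb2 (0.74 and 0.80), Pde1b, a calmodulin-dependent phosphodiesterase (0.73 and 0.92), and Tmem74b (0.74 and 0.73). For Grm8 they were Cntn6, a contactin (0.78 and 0.79), Pik3c3 (0.75 and 0.82), and Ext1 (0.79 and 0.75). GC content moved with these lists, from 57.4 to 62.4% for the genes most like Grm4, 54.1 to 62.0% for Grm2, and 43.4 to 49.6% for those most like the other 4 receptors, and its part in the likeness was not tested.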

How the data were processed

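The authors extracted RNA from bulk PFC and Hypo, prepared stranded paired-end mRNA libraries, aligned reads with STAR to GRCm38, and deposited featureCounts counts per gene, without normalization or filter. The authors measured RIN, a score, on a Bioanalyzer. Deposited quality measures from Picard comprise AT dropout, also a score, fraction values (shares of bases and strand), a ratio for coverage evenness and for end bias, and counts of aligned reads, and the first 2 principal components of 8 of them served as an alternative covariate. The members and gene lists were chosen with earlier results of these data known. GENCODE vM21 gave coordinates, exon length, and GC content (of the longest transcript) for 53905 of 54165 genes.

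Counts were analysed in R 4.3.3 with edgeR 4.0.16 (TMM, glmQLFit with robust estimation, glmQLFTest). Within a tissue, a gene was dropped if at least 2 libraries had under 100 reads, or if its log2-CPM (prior count 2) varied least (bottom 15%), and the model held group, RIN, and 2 surrogate variables (sva 3.50.0). Between tissues, genes passed filterByExpr and the model held the 8 groups and RIN. A gene was called at a Benjamini-Hochberg adjusted p under 0.05. SE is the fold change divided by the square root of F. Alternatives were limma-voom 3.58.1, DESeq2 1.42.0, RLE factors, other filters and covariates, removal of GC and length trends, and each library left out. The fits were tested on simulated data. Genes named are the 6 receptors, called pathway genes (at most 3 per role between tissues), the 3 genes most like each receptor, and Ube3a, and marker lists appear as sums, with members near 0 named. Foxb1 was named outside this rule, after its values were seen. Some genes that the rule names are not reported here. Promoters came from RefSeq (GRCm38.p6).

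The mouse number pairs the tissues of 13 mice, since it names 1 animal. Deviations from group means over genes correlated between the tissues of a mouse from -0.50 to 0.40 (median -0.018). Voom with the mouse as a random block had a correlation of -0.087. Precision is limited by 4 or 5 libraries per group. Each receptor value had 280 or more reads behind it, and the counting error was not compared with the spread between libraries.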

Additional observations from a re-analysis of the deposited data

Results flagged for a closer look

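Of 48 sets of a receptor and a group, 6 held a library whose gap to its neighbour exceeded Dixon's critical value, and chance flags about 1 set in 20. PFC Ube3a2X female 468 accounted for 4 of them, with Grm3 at 139 CPM (next 84.7), Grm5 at 459 CPM (next 288), Grm7 at 97.1 CPM (next 72.7), and Grm4, in the other direction, at 12.9 CPM (next 19.0). This was the library with the lowest AT dropout and the most uneven coverage. Hypo WT female 471 had Grm5 at 73.5 CPM (next 180) beside its pituitary transcripts. Hypo Ube3a2X female 417 had Grm5 at 182 CPM (next 198), within the range of the other Hypo groups.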

How the results depend on the processing

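Among the 6 receptors, between-tissue directions held for Grm2, Grm3, Grm4, Grm5, and Grm8 under all 9 alternatives and all 38 fits that left out 1 library. With the mouse as a replicate block, the random effect in limma-voom kept all 5 calls and the fixed factor in edgeR on 13 mice kept 2, Grm3 and Grm5. That fit lost Grm2 (1.10), Grm4 (-0.56), and Grm8 (0.47) and changed no other receptor call. It left 41 of the pathway genes called, a count without its background, since the share of all genes called in that fit is not given here. Grm7 ranged from -0.10 to 0.029 between the tissues when 1 library was left out and reached -0.16, past the threshold, without libraries 468 and 471 (an alternative added after seeing the data). Left out 1 at a time, the libraries gave 0 to 1 receptor called for the PFC interaction. That receptor was Grm5, without WT female 93 or Ube3a2X female 462, fits in which 14.9% and 9.57% of all genes were called. The count for sex in the Hypo was also 0 to 1. It was 0 with RIN alone, with quality components, and, also added after seeing the data, without the 3 Hypo libraries low in Foxb1 (Grm7 -0.17, edgeR adjusted p = 0.127, Grm2 for sex 0.11, where leaving out males with little Grm2 fixes the direction).

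Signs of values not called also changed. They did so for Grm4 in the PFC with quality components (interaction -0.39, males -0.28, females 0.11), Grm4 in PFC females with filterByExpr (0.039), with GC and length trends removed (0.11), and from -0.20 to 0.13 with 1 library left out, and Grm3 for the PFC interaction with RIN alone (-0.082) and quality components (-0.019). The PFC interaction of Grm8 was 0.11 with GC and length trends removed and ran from -0.32 without WT female 93 to 0.088 without WT female 397. For Hypo females Grm2 was 0.010 by limma-voom and ran from -0.13 to 0.081 with 1 library left out. Grm8 in the Hypo was -0.012 in both sexes together and -0.012 in females without the variance filter, and -0.037 in both together with filterByExpr. Of the 38 receptor contrasts given as ranges or counts, 0 were called in any of these fits, and the sign was the other one in 54 of 356 values under alternatives and in 88 of 912 with 1 library left out. With group means kept, 1 of the 3 genes most like Grm2, 1 of those most like Grm3, and 0 of those most like Grm7 remained. Pathway counts in the PFC interaction ran from 0 to 15 with 1 library left out, with 10 without Ube3a2X male 253, 11 without Ube3a2X female 462, and 15 without WT female 93, fits in which 9.56%, 9.57%, and 14.9% of all genes were called.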

Other observations

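The receptors also kept step with each other within a tissue. The deviations of Grm5 correlated with those of Grm3 (r 0.89) and Grm7 (r 0.87) over the 20 PFC libraries, and over the 18 Hypo libraries with those of Grm7 (r 0.80) and Grm3 (r 0.80). In the Hypo, Grm2 and Grm4 were the closest pair (r 0.86), over libraries that include the 3 low in Grm2, of which those of mice 245 and 404 also had the least Grm4. These values describe libraries that share depth, base composition, and, for the pairs with Grm5, the libraries 468 and 471 that stood apart.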
